A study of Drosophila melanogaster with 46 samples.

Results

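Serotonin and octopamine signalling was followed through 9 genes in the head transcriptome of Drosophila melanogaster: the serotonin transporter SerT, the serotonin receptors 5-HT1A, 5-HT1B, 5-HT2A, 5-HT2B and 5-HT7, the octopamine synthesis enzymes Tdc2 and Tbh, and the octopamine receptor Oamb. They were chosen by name, as the serotonin transporter and receptors and the neuronal octopamine synthesis genes with a receptor. All 9 were found among the 17490 gene identifiers of the count table, and all 9 were among the 9969 genes that passed the filter on low counts.

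The heads came from 4 groups. inc1 flies carry a mutation in insomniac and wakeD2 flies a mutation in wide awake, and both were collected at Day 27. WT-old flies were Canton-S w1118 (iso1CJ) collected at Day 49, and WT flies were the same strain at Day 27. Repeated crosses had brought both mutations into this background, and each mutant group stands for a single allele. All flies were kept in light/dark cycles, and each library pooled roughly 200 heads of males and females. A library was made every 4 h over 2 days, from Zeitgeber time (ZT) 0, lights on, to ZT44, which gave 12 libraries for inc1, 12 for wakeD2, 12 for WT-old and 10 for WT. The WT libraries of ZT28 and ZT40 were not analysed here. The study asked how chronic sleep loss in the mutants, and age, alter expression over the day. No timepoint of a group was sampled in duplicate, so the SDs given here are spreads over timepoints. The SEs of log2 fold changes come from the fitted model. Their p-values rest on the spread between libraries beyond group and time of day. Those of rhythms rest on the spread beyond group and a 24 h curve per group.

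Serotonin is made from tryptophan by the neuronal tryptophan hydroxylase Trhn and the decarboxylase Ddc, is loaded into vesicles by Vmat, and is cleared from the extracellular space by SerT. Its fly receptors are all G protein-coupled: 5-HT1A and 5-HT1B lower cyclic AMP, 5-HT7 raises it, and the 5-HT2 receptors act through calcium. Octopamine, the insect counterpart of noradrenaline, is made from tyrosine by the decarboxylase Tdc2 and the hydroxylase Tbh, and Oamb is its alpha1-like receptor, abundant in the mushroom bodies. In flies, serotonin is known for promoting sleep and setting feeding and light responses, and octopamine for promoting wakefulness, arousal and reward learning.

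The libraries held 12630462 to 29802881 counted reads, with a median of 22856683. The lowest count of any of the 9 genes in any library was 90 (Tdc2 in inc1), while 3 reads correspond to at most 0.253 CPM (read counts scaled to a common library size), so none of the genes was near the detection limit. The mutated genes matched their labels: inc had 8.46 to 15.2 CPM in inc1 against 65.9 to 104 CPM in WT, and wake had 35.7 to 52.4 CPM in wakeD2 against 66.2 to 78.9 CPM in WT. Neuron, glia and photoreceptor markers were present in every group, with summed levels of 4200 to 7208, 3882 to 6114, 3302 to 4927 and 4151 to 5416 CPM for the neuron list in inc1, wakeD2, WT-old and WT. RNA of tissues outside the head was also present. Male accessory gland markers had a median above 1 CPM in 4 of 12 inc1, 11 of 12 wakeD2, 1 of 12 WT-old and 3 of 10 WT libraries, and their summed level ranged over 0 to 242, 0.473 to 1197, 0.271 to 46.8 and 0.147 to 43.8 CPM in these groups. Testis, ejaculatory bulb and midgut lists passed the same limit in the same number of libraries, while the ovary list passed it in none. A trunk Hox list, for the ventral nerve cord, passed it in 4 inc1, 8 wakeD2, 0 WT-old and 0 WT libraries. Its summed level reached 10.4, 15.8, 7.24 and 5.84 CPM in these groups, and its part in the results for the 9 genes was not tested. The ZT8 libraries of inc1 and wakeD2 stood apart by their summed neuron markers, at 7208 and 6114 CPM, against 4200 to 5403 and 3882 to 5108 CPM in the other libraries of these groups. The level calls below are given with and without the libraries with accessory gland markers where these change a call, and the ratios and tests by time of day with and without the ZT8 libraries of inc1 and wakeD2.

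Levels between genes were compared per kilobase of merged exon length. In WT heads 5-HT2A stood highest, at 17.0 ± 3.56 CPM per kb (SD over 10 libraries), followed by Tbh at 13.8 ± 1.62, 5-HT1A at 10.4 ± 1.30, Oamb at 8.13 ± 0.526, 5-HT1B at 7.63 ± 0.609, SerT at 7.43 ± 1.06, 5-HT7 at 4.51 ± 0.809, Tdc2 at 3.76 ± 0.667 and 5-HT2B at 3.51 ± 0.260 CPM per kb. Neighbours in this order lay within an SD of each other for 5-HT2A and Tbh, for Oamb, 5-HT1B and SerT, and for 5-HT7, Tdc2 and 5-HT2B. In inc1 heads 5-HT2A averaged 9.10 ± 1.29 CPM per kb (n = 12), below Tbh (14.3 ± 2.35), 5-HT1A (11.1 ± 1.61) and, within its SD, Oamb (9.66 ± 0.709). In wakeD2 heads it averaged 12.9 ± 2.47 CPM per kb and in WT-old heads 15.2 ± 2.69 CPM per kb (n = 12 each). In the annotation of the Release 6 assembly 5-HT2A lies on chromosome arm 3R from 4612870 to 4633304, SerT on 2R from 24404595 to 24411074, and Oamb on 3R from 20689018 to 20714577, and no member shares exonic bases with another annotated gene.

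**Figure D1:**
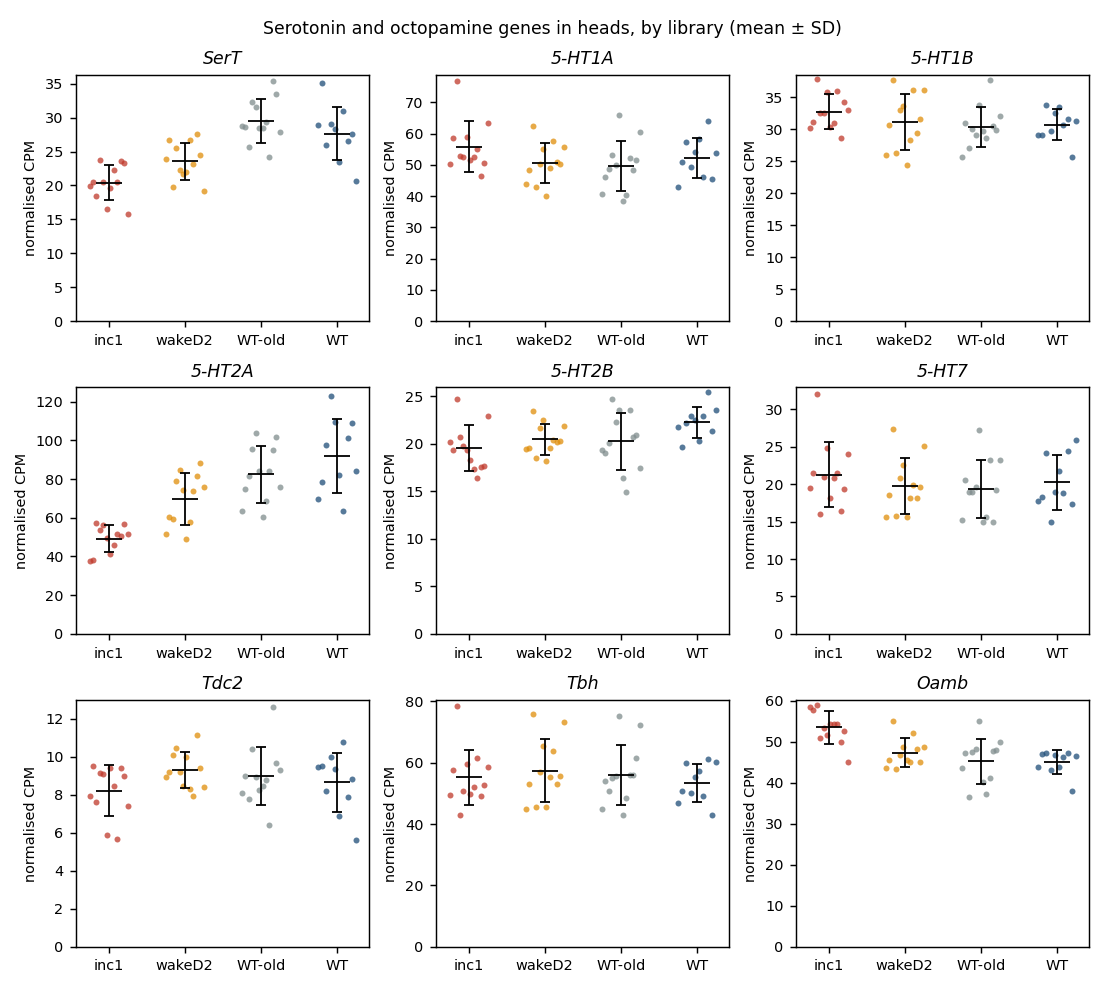
Normalised CPM (y axis, from 0) of the 9 genes in each library of inc1, wakeD2, WT-old and WT. Points are libraries in order of collection within a group, and black marks give the mean ± SD. For 5-HT2A all 12 inc1 libraries lie below all 10 WT libraries, and for SerT the inc1 mean of 20.4 CPM and the wakeD2 mean of 23.6 CPM lie below the WT mean of 27.7 CPM.

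The inc1 flies were first compared with WT of the same age over all times of day. 5-HT2A and SerT fell, 5-HT2B fell by less, and Oamb rose, while 5-HT1A, 5-HT1B, 5-HT7, Tdc2 and Tbh did not pass the test. These 4 of 9 genes compare with 33.4% of all 9969 genes called in inc1 against WT, 18.4% lower and 15.1% higher, so the number of calls is not by itself a property of the 9 genes. Their median log2 fold change was 0.05, against 0.02 over all genes tested.

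5-HT2A, a receptor known in flies for roles in sleep and feeding, had 37.8 CPM in its lowest, 51.0 CPM in its median and 57.3 CPM in its highest inc1 library, against 63.6, 90.9 and 123.1 CPM in WT. The groups did not overlap, and inc1 was lower at all 10 shared timepoints, by a ratio between 0.437 and 0.652. The mean was 49.2 ± 6.96 CPM in inc1 and 91.9 ± 19.3 CPM in WT (SD, n = 12 and 10), and the log2 fold change of -0.90 ± 0.045 (SE) corresponded to 0.538 times the WT level (edgeR quasi-likelihood test, Benjamini-Hochberg adjusted p = 2.1e-19). Without the libraries with accessory gland markers the log2 fold change was -0.89 (adjusted p = 3.3e-11). The 8 remaining inc1 libraries had 41.5 to 57.3 CPM and the 7 remaining WT libraries 63.6 to 123.1 CPM. The log2 fold change was -0.92 on the first sampling day (adjusted p = 1.8e-08) and -0.85 on the second (adjusted p = 9.3e-07). In whole heads, fewer cells of a type and less RNA per cell cannot be told apart.

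SerT had 15.9, 20.5 and 23.7 CPM in the lowest, median and highest inc1 library, against 20.7, 28.0 and 35.1 CPM in WT. Single libraries overlapped, but inc1 was lower at 10 of 10 shared timepoints. The mean was 20.4 ± 2.59 CPM in inc1 and 27.7 ± 3.95 CPM in WT, with a log2 fold change of -0.46 ± 0.049 (edgeR adjusted p = 9.2e-10). The fall remained past the threshold on each sampling day alone and without the libraries with accessory gland markers (log2 fold change -0.45, adjusted p = 1.5e-06).

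5-HT2B, the other member of the 5-HT2 pair, had 16.4, 19.3 and 24.7 CPM in inc1, against 19.6, 22.3 and 25.4 CPM in WT, with wide overlap. Its log2 fold change of -0.18 ± 0.063 passed the threshold by little (edgeR adjusted p = 0.026). This call was lost on the first sampling day alone (log2 fold change -0.05, adjusted p = 0.65), under upper-quartile normalisation (adjusted p = 0.061), without a filter on low counts (adjusted p = 0.076) and without the libraries with accessory gland markers (adjusted p = 0.099).

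Oamb moved the other way. It had 45.0, 53.8 and 58.9 CPM in the lowest, median and highest inc1 library, against 38.0, 46.4 and 47.3 CPM in WT, and was higher in inc1 at 9 of 10 shared timepoints. The mean was 53.4 ± 3.92 CPM in inc1 and 45.0 ± 2.91 CPM in WT, a log2 fold change of 0.25 ± 0.056 (edgeR adjusted p = 0.00047). 11 of the 12 inc1 libraries lay above every WT library, and the lone exception was the inc1 library of ZT44. On the second sampling day alone the rise did not pass the threshold (log2 fold change 0.24, adjusted p = 0.065).

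The genes that make octopamine did not pass the test. Tdc2 averaged 8.21 ± 1.34 CPM in inc1 and 8.65 ± 1.54 CPM in WT, with a log2 fold change of -0.09 and an interval (2 SE) of -0.23 to 0.06. Tbh averaged 55.2 ± 9.08 CPM in inc1 and 53.4 ± 6.28 CPM in WT, with an interval of -0.07 to 0.19. Of the other serotonin receptors, 5-HT1A, an inhibitory receptor tied to sleep in flies, had a log2 fold change of 0.11 (edgeR adjusted p = 0.12), 5-HT1B had 0.09 (adjusted p = 0.11) and 5-HT7 had 0.08 (adjusted p = 0.35). Under upper-quartile normalisation 5-HT1A and 5-HT1B crossed the threshold, at log2 fold changes of 0.14 and 0.13 (adjusted p = 0.043 and 0.036). Marker lists also moved in inc1 against WT: 5 of 9 photoreceptor markers were lower, 4 of 7 glia markers higher, and of 12 neuron markers 2 were lower and 2 higher. The part of these shifts in the results for the 9 genes was not tested.

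**Figure D2:**
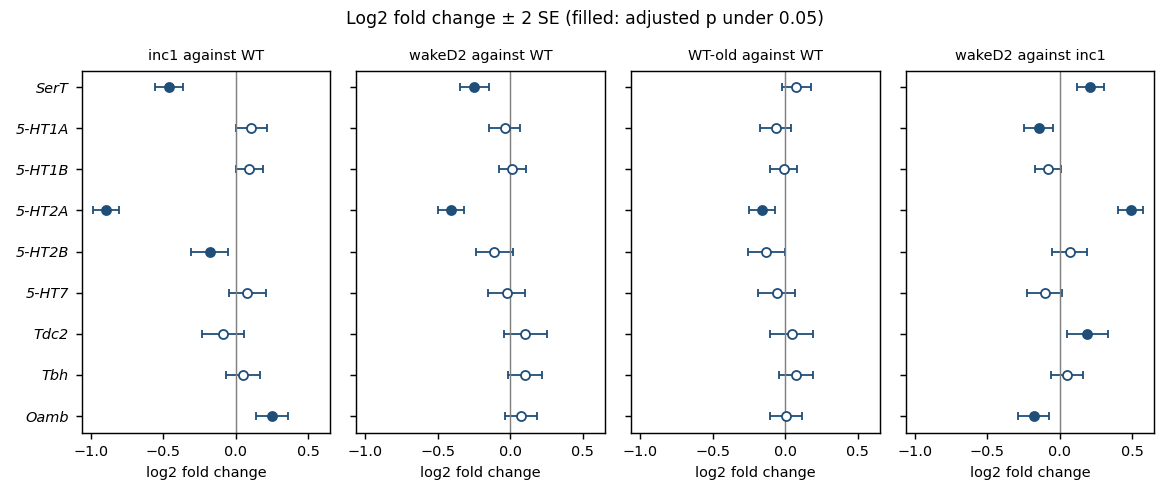
Log2 fold change (x axis) of the 9 genes (rows) in the comparisons inc1 against WT, wakeD2 against WT, WT-old against WT and wakeD2 against inc1, each with bars of 2 SE. Filled points passed an adjusted p of 0.05. 5-HT2A lies left of 0 in all 3 comparisons with WT, at -0.90 in inc1, -0.41 in wakeD2 and -0.16 in WT-old.

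In wakeD2 flies 5-HT2A and SerT fell as well, and no other of the 9 genes passed the test. These 2 calls, both lower, compare with 23.7% of all genes called in wakeD2 against WT, 11.6% lower and 12.1% higher. 5-HT2A had 48.8, 74.1 and 88.2 CPM in the lowest, median and highest wakeD2 library, against 63.6, 90.9 and 123.1 CPM in WT, and was lower in wakeD2 at 10 of 10 shared timepoints, by a ratio between 0.608 and 0.907. The mean was 69.6 ± 13.4 CPM in wakeD2 and 91.9 ± 19.3 CPM in WT, a log2 fold change of -0.41 ± 0.045 (edgeR adjusted p = 5.5e-09). SerT had 19.2, 23.5 and 27.5 CPM in wakeD2, against 20.7, 28.0 and 35.1 CPM in WT, and was also lower at 10 of 10 shared timepoints, though at ZT36 the ratio was 0.998. Its mean was 23.6 ± 2.73 CPM in wakeD2 and 27.7 ± 3.95 CPM in WT, a log2 fold change of -0.25 ± 0.049 (edgeR adjusted p = 0.0002). The other 7 genes had log2 fold changes between -0.11 (5-HT2B) and 0.10 (Tdc2), and the median over the 9 was -0.03, against -0.01 over all genes tested.

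Since 11 of 12 wakeD2 libraries held accessory gland RNA, the wakeD2 results could hardly be had without it. Leaving out such libraries left a single wakeD2 library, of ZT36, whose spread was then assumed to be that of the other groups. In that fit neither gene passed, with log2 fold changes of -0.38 for 5-HT2A (adjusted p = 0.43) and -0.19 for SerT (adjusted p = 1.0). With the summed level of accessory gland and midgut markers as a covariate, 5-HT2A kept its call (log2 fold change -0.36, adjusted p = 4.2e-05) and SerT lost it (-0.19, adjusted p = 0.069). SerT was not called on the second sampling day alone either (-0.20, adjusted p = 0.23). In wakeD2 against WT, 6 of 7 glia markers were lower, and of 9 photoreceptor markers 3 were lower and 2 higher. Their part in these results was not tested.

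The mutants were compared directly, since a call in each against the shared WT libraries does not show how they differ. 5 of the 9 genes differed between wakeD2 and inc1, against 40.8% of all genes, 19.5% lower and 21.3% higher in wakeD2. 5-HT2A was higher in wakeD2 than in inc1 at 12 of 12 timepoints, at 69.6 ± 13.4 CPM in wakeD2 and 49.2 ± 6.96 CPM in inc1 (log2 fold change 0.49 ± 0.043, edgeR adjusted p = 5.5e-12). It was the only one of the 5 to pass on the second sampling day alone and without the libraries with accessory gland markers, where it was tested against a single wakeD2 library. SerT was higher in wakeD2 at 12 of 12 timepoints (log2 fold change 0.21, adjusted p = 0.00051), and Tdc2 at 10 of 12 (0.19, adjusted p = 0.027). Oamb was lower in wakeD2 at 11 of 12 timepoints (-0.18, adjusted p = 0.0064), and 5-HT1A at 10 of 12 (-0.15, adjusted p = 0.020). With the covariate for accessory gland and midgut markers, the Oamb and 5-HT1A calls were lost (adjusted p = 0.11 and 0.23).

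Age was examined at Day 49 against Day 27 in the same strain. 5-HT2A was the only gene of the 9 that passed, against 27.7% of all genes, 12.4% lower and 15.3% higher in WT-old. It had 60.3, 82.8 and 104.0 CPM in the lowest, median and highest WT-old library, against 63.6, 90.9 and 123.1 CPM in WT, and the groups overlapped over most of their range. It was lower in WT-old at 9 of 10 shared timepoints, with a log2 fold change of -0.16 ± 0.045 (edgeR adjusted p = 0.0055). The call was lost on the first (adjusted p = 0.15) and the second sampling day alone (adjusted p = 0.12), and in a model with no term for time of day (adjusted p = 0.41). SerT, lower in both mutants, averaged 29.5 ± 3.20 CPM in WT-old and 27.7 ± 3.95 CPM in WT, with a log2 fold change of 0.08 and an interval of -0.02 to 0.18. The median over the 9 genes was -0.01, against 0.0015 over all genes tested. All 9 photoreceptor markers were lower in WT-old, with a median log2 fold change of -0.34, and 2 of 12 neuron markers were lower. Their part in the 5-HT2A result was not tested.

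The design also gave the course over the day. A cosine of a 24 h period was fitted within each group, and amplitudes are given as the log2 distance from the mean to the peak. 5-HT2A was the only one of the 9 genes with such a rhythm in inc1, where 5.03% of all genes passed, in wakeD2, where 5.92% passed, and in WT, where 6.11% passed. In WT-old, where 19.6% of genes passed, 5-HT2A and Oamb were rhythmic. Each time of day had its own place in the order of the samples in the series. The part of that order in these rhythms was not tested.

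5-HT2A was low around lights on and high around and after lights off. In inc1 it was also high at ZT8, a time that includes the library with high neuron markers. The 5-HT2A means at ZT0, ZT4, ZT8, ZT12, ZT16 and ZT20, over both days, were 39.6, 42.0, 54.5, 52.1, 56.6 and 50.7 CPM in inc1. They were 50.3, 59.0, 66.6, 80.4, 86.4 and 75.1 CPM in wakeD2, 61.8, 71.8, 82.8, 95.4, 102.9 and 79.9 CPM in WT-old, and 66.6, 78.6, 99.6, 116.2, 109.7 and 83.1 CPM in WT. The peak came at ZT13.5 in inc1, ZT14.4 in wakeD2, ZT13.6 in WT-old and ZT12.7 in WT, with standard errors of 0.852, 0.578, 0.433 and 0.322 h from a least-squares fit. The amplitude was 0.24 in inc1 (edgeR adjusted p = 0.0025), 0.35 in wakeD2 (adjusted p = 3.7e-06), 0.33 in WT-old (adjusted p = 3.9e-06) and 0.40 in WT (adjusted p = 1.2e-06), equal to peak-to-trough ratios of 1.40, 1.63, 1.59 and 1.74. Without a filter on low counts the inc1 rhythm of 5-HT2A did not pass (adjusted p = 0.085).

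**Figure D3:**
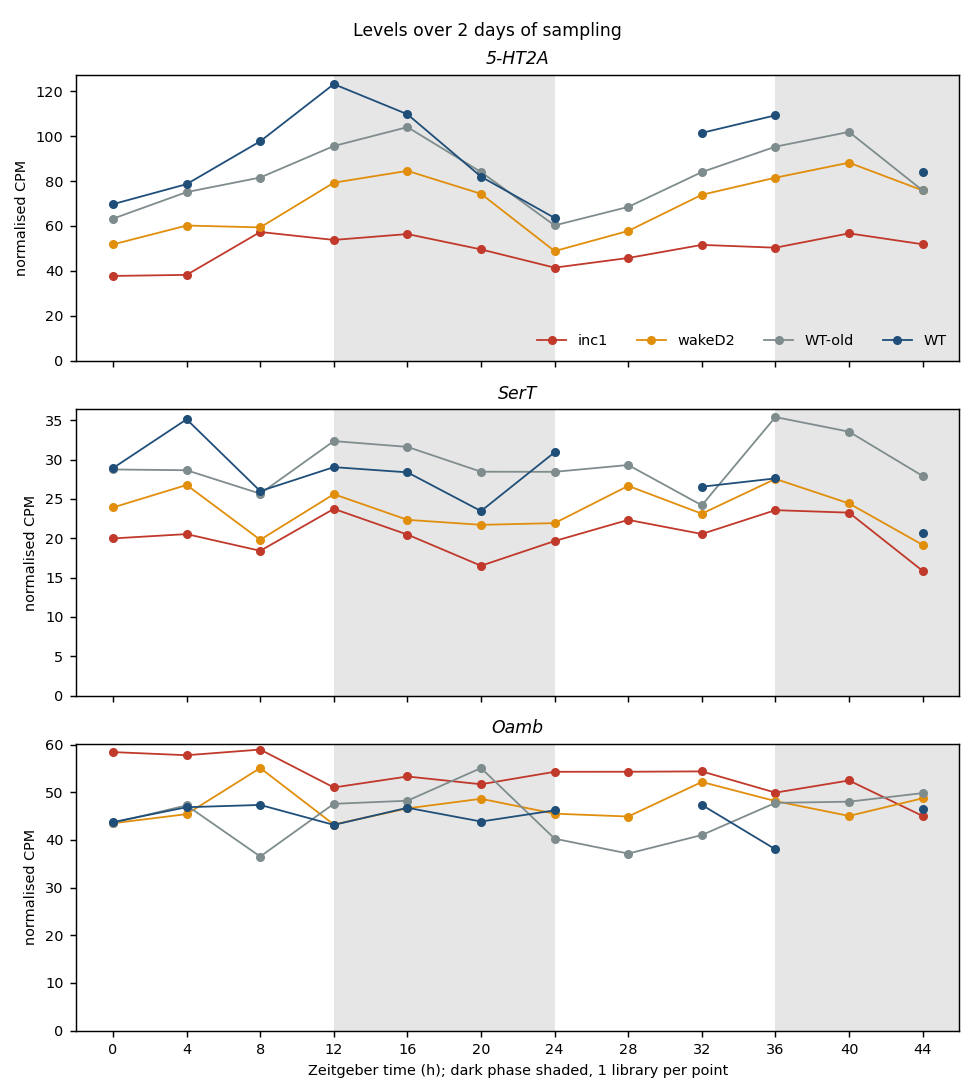
Normalised CPM (y axis, from 0) of 5-HT2A, SerT and Oamb at each Zeitgeber time (x axis, h) in inc1, wakeD2, WT-old and WT, with 1 library per point and the dark phase shaded. The WT line is broken where ZT28 and ZT40 were not analysed. The highest 5-HT2A library is that of ZT8 in inc1, at 57.3 CPM, and that of ZT12 in WT, at 123.1 CPM.

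The difference in rhythm was tested by itself. This test takes amplitude and peak time together, so it does not single out the lower amplitude of 5-HT2A in the mutants. For 5-HT2A the difference did not pass over all genes. The unadjusted p was 0.043 for inc1 against WT and 0.035 for wakeD2 against WT, with adjusted p = 1.0 in both edgeR tests. None of the 9 genes passed for any group against WT in this model, where 0.0301% of genes differed in inc1, 0% in wakeD2 and 1.65% in WT-old. Changes over the day other than the 24 h curve count as spread in this model, which can lower its power. At an unadjusted p under 0.05 in the edgeR test there was 1 of the 9 genes in inc1, 1 in wakeD2, and 2 in WT-old, against 3.32%, 1.46% and 9.38% of all genes. limma called none of the 9, and 3, 0 and 156 genes in all. The 2 genes in WT-old were SerT (unadjusted p = 0.036, adjusted p = 0.47) and Oamb (unadjusted p = 0.011, adjusted p = 0.28).

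Oamb in WT-old had its lowest mean at ZT8, 38.8 CPM, and its highest at ZT20, 52.4 CPM, while in WT the means ranged from 40.6 CPM at ZT12 to 47.3 CPM at ZT8. The fitted peak in WT-old was at ZT17.6 with an amplitude of 0.18 (edgeR adjusted p = 0.0098). The call was lost over the 10 shared timepoints (adjusted p = 0.081) and without a filter on low counts (adjusted p = 0.075). In WT-old all 9 fitted peaks, called or not, fell between ZT12.4 and ZT17.6, and 11 of 12 neuron markers also peaked in the dark phase, against 51.2% of all genes. In WT 3 of the 9 genes and 4 of the 12 neuron markers peaked in the dark phase, against 49.8% of all genes. Only 1 of the 9 genes, 5-HT2A, and 0 of the 12 neuron markers had a called rhythm in WT. The least-squares standard error of the WT peak was 0.322 h for 5-HT2A, but 43.2 h for Tbh and 8.74 h for 5-HT7. The scaling factors of the TMM normalisation also changed over the day in WT-old. They were 1.00143 to 1.02475 in the libraries before ZT12 of each day, and 1.10046 to 1.14399 in those from ZT12 on. In WT they ranged from 0.96042 to 1.05349 and overlapped between these hours. The part of this step in the Oamb call and in the shared dark-phase peaks of WT-old was not tested.

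SerT did not pass the cosine test in inc1 (edgeR adjusted p = 0.43), wakeD2 (0.97), WT-old (0.36) or WT (0.60). Its lowest mean came at ZT20 in each Day 27 group, at 16.2 CPM in inc1, 20.4 CPM in wakeD2 and 22.1 CPM in WT. When the 6 times of day were compared over all groups without assuming a shape, a test chosen after the values were seen, 7 of the 9 genes differed between times, against 73.8% of all genes. The exceptions were 5-HT2B (edgeR adjusted p = 0.053) and Oamb (adjusted p = 0.70). Times of day also differed in their place in the order of the samples in the series, and its part in this test was not tested. 5-HT2A spanned the widest range of the 9, with its highest time 1.61 times its lowest (adjusted p = 4.2e-14), and 5-HT7 came next at 1.47 times (adjusted p = 2.7e-09).

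Several of these genes changed together in the libraries of ZT8, ZT20, ZT32 and ZT44, which differed from the rest. In the order of the samples in the series, these libraries of all groups form a single unbroken run at the end. Time of day and place in that order therefore cannot be separated in this contrast. The part of the sample order in it was not tested. 5-HT7, a receptor coupled to cyclic AMP, averaged 25.6, 23.8, 23.2 and 24.1 CPM in those libraries of inc1, wakeD2, WT-old and WT, 1.34, 1.33, 1.33 and 1.36 times its mean in the other libraries of each group. 5-HT1A stood at 1.23, 1.23, 1.23 and 1.21 times its other mean in the same order of groups, and Tbh at 1.28, 1.36, 1.22 and 1.21 times.

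SerT and Tdc2 were lower in the same libraries. SerT averaged 0.822, 0.841, 0.857 and 0.806 times its mean elsewhere in inc1, wakeD2, WT-old and WT, and in WT all 4 of these libraries lay below the other 6. Tdc2 averaged 0.738, 0.912, 0.836 and 0.740 times its mean elsewhere. 5-HT1B stood at 1.14, 1.25, 1.11 and 1.10 times. The summed neuron markers stood at 1.30, 1.24, 1.17 and 1.20 times, the summed glia markers at 1.13, 1.13, 1.05 and 1.09 times, and the summed photoreceptor markers at 0.915, 0.974, 0.957 and 0.935 times. Without the ZT8 libraries of inc1 and wakeD2 the ratios in these groups were 1.23 and 1.27 for 5-HT7, 1.14 and 1.20 for 5-HT1A, 1.18 and 1.32 for Tbh, 0.813 and 0.857 for SerT, 0.703 and 0.865 for Tdc2, and 1.18 and 1.18 for the summed neuron markers. The same ratios were 1.12 and 1.23 for 5-HT1B, 1.11 and 1.17 for the summed glia markers, and 0.912 and 0.956 for the summed photoreceptor markers. The times were picked after seeing the values, so these ratios carry no test, and the part of the marker shifts in them was not tested.

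**Figure D4:**
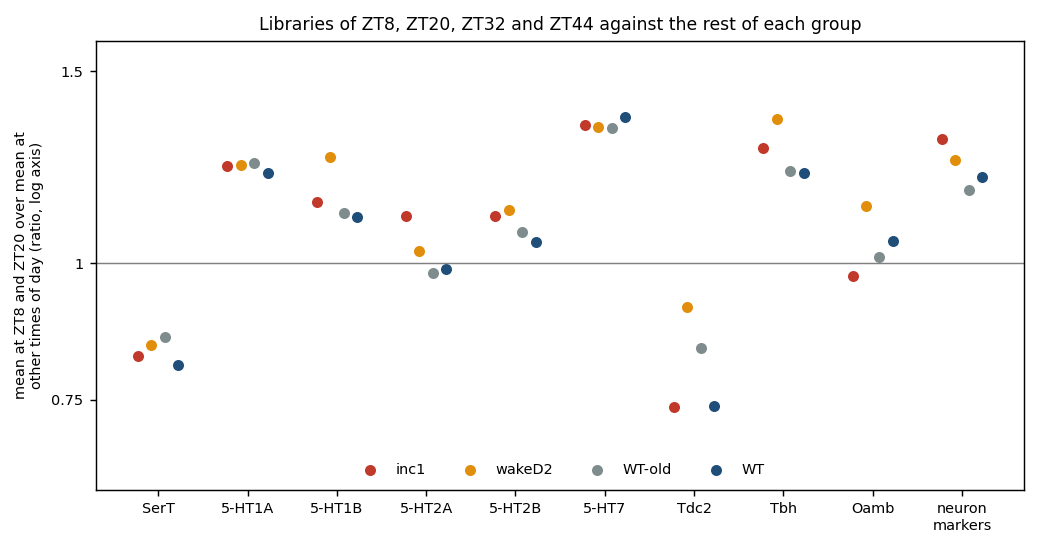
Mean level in the libraries of ZT8, ZT20, ZT32 and ZT44 divided by the mean of the other libraries of the same group (y axis, ratio on a log axis), for each of the 9 genes and for the summed neuron markers (x axis), in inc1, wakeD2, WT-old and WT. SerT and Tdc2 lie below 1 in all 4 groups, while 5-HT1A, 5-HT7, Tbh and the neuron markers lie above 1.

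The 2 libraries with high neuron markers, the ZT8 libraries of inc1 and wakeD2, held the highest value of their group for 5-HT1A (77.0 CPM in inc1 and 62.5 CPM in wakeD2), 5-HT7 (32.1 and 27.4 CPM), Tbh (78.6 and 76.0 CPM), Oamb (58.9 and 55.1 CPM), 5-HT1B (37.9 and 37.8 CPM) and 5-HT2B (24.7 and 23.4 CPM). That of inc1 was also the highest of its group for 5-HT2A. Without them, every call of level among the 9 genes stood, 7 of 9 genes still differed between times of day, and 5-HT2B in WT-old gained a rhythm (amplitude 0.20, edgeR adjusted p = 0.033). Over the 46 libraries, Pearson's r with the mean log2 level of the neuron markers was 0.81 for 5-HT2B, 0.76 for 5-HT1A and 0.71 for 5-HT7, but 0.22 for 5-HT2A and -0.31 for SerT. These correlations describe libraries that share group, time and depth.

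Of 13 other genes of serotonin, octopamine and tyramine biology, 12 were in the table, and all 12 were tested. In inc1 3 were lower and 1 higher than in WT, in wakeD2 3 were lower and in WT-old 2 were lower, with no other passing. These counts of 12 compare with 33.4% of all genes called in inc1, 23.7% in wakeD2 and 27.7% in WT-old, and the list does not stand apart by its number of calls. Vmat, which fills vesicles with all amines, had 289 to 417 CPM in inc1 and 302 to 414 CPM in wakeD2, against 380 to 463 CPM in WT. It averaged 321 ± 33.0 CPM in inc1, 369 ± 35.9 CPM in wakeD2 and 415 ± 24.9 CPM in WT, with log2 fold changes of -0.36 in inc1 (edgeR adjusted p = 9.0e-09) and -0.16 in wakeD2 (adjusted p = 0.0037). Both comparisons used the same WT libraries.

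Enzymes showed no common direction. Trhn, the neuronal enzyme of serotonin synthesis, averaged 16.0 ± 4.17 CPM in inc1, 17.3 ± 2.89 CPM in wakeD2, 17.8 ± 3.15 CPM in WT-old and 17.0 ± 3.01 CPM in WT and passed in no comparison. Tdc1, the tyrosine decarboxylase outside neurons, fell in inc1 (log2 fold change -0.30, edgeR adjusted p = 2.4e-05). Hn, the peripheral hydroxylase that also acts on phenylalanine, rose in inc1 (0.33, adjusted p = 0.017) and was lower in wakeD2 than in inc1 (-0.47, adjusted p = 0.0005).

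Among other receptors, TyrRII, a tyramine receptor, fell in inc1 (-0.34, edgeR adjusted p = 0.00016). Octbeta1R, which raises cyclic AMP, averaged 53.8 ± 5.17 CPM in wakeD2 and 56.8 ± 6.17 CPM in WT-old, against 64.5 ± 3.54 CPM in WT, and fell in both (-0.25, adjusted p = 0.0012, and -0.17, adjusted p = 0.021). It was also lower in wakeD2 than in inc1 (-0.31, adjusted p = 1.8e-05). Octalpha2R fell in wakeD2 (-0.17, adjusted p = 0.033) and Octbeta3R in WT-old (-0.15, adjusted p = 0.034). Against inc1, wakeD2 flies had lower Octalpha2R (-0.15, adjusted p = 0.025) and higher Vmat (0.20, adjusted p = 0.0002), TyrRII (0.20, adjusted p = 0.015), Tdc1 (0.16, adjusted p = 0.011) and TyrR (0.14, adjusted p = 0.038). These 7 of 12 compare with 40.8% of all genes.

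Without the libraries with accessory gland markers, which left a single wakeD2 library, none of the 12 passed in wakeD2 against WT, where Vmat had a log2 fold change of -0.06, Octalpha2R of -0.08 and Octbeta1R of -0.28 (edgeR adjusted p = 1.0 for each). None passed in wakeD2 against inc1 or in WT-old against WT either, with adjusted p = 0.096 for Octbeta1R and 0.060 for Octbeta3R in WT-old. In inc1 against WT the falls of Vmat, Tdc1 and TyrRII stood, and Hn did not pass (adjusted p = 0.087). With the covariate for accessory gland and midgut markers, the wakeD2 fall of Octbeta1R stood (-0.25, adjusted p = 0.037), and those of Vmat (-0.11, adjusted p = 0.27) and Octalpha2R (-0.11, adjusted p = 0.45) were lost. Between wakeD2 and inc1 the covariate left the calls of Hn, Vmat, Octbeta1R and TyrRII.

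**Figure D5:**
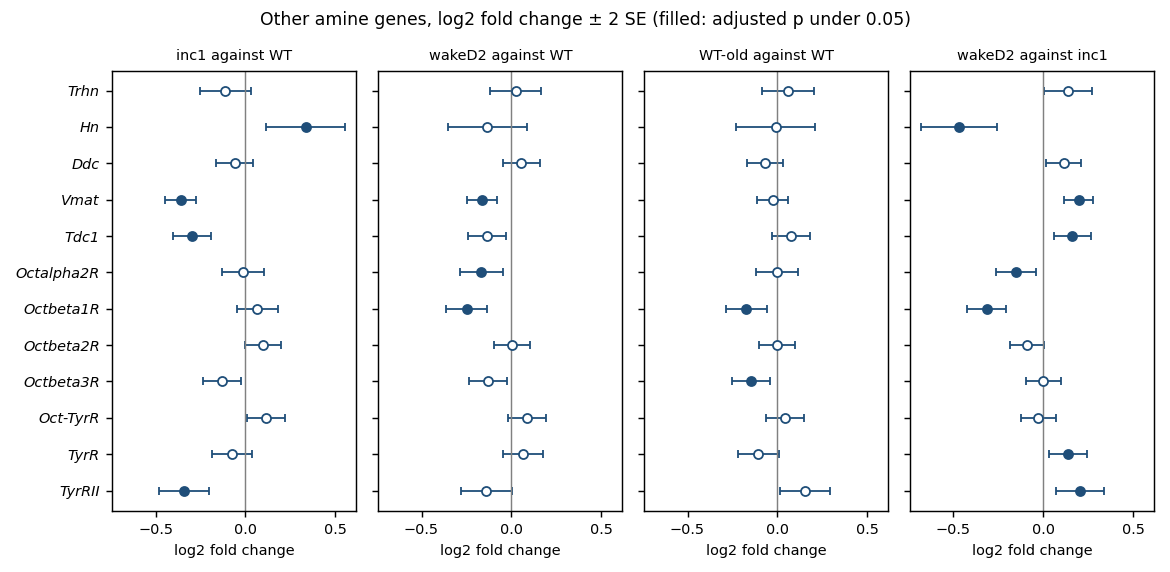
Log2 fold change (x axis) with bars of 2 SE for the 12 other amine genes (rows) in the same 4 comparisons, with filled points for an adjusted p under 0.05. Vmat lies at -0.36 in inc1 and -0.16 in wakeD2, and Octbeta1R at -0.25 in wakeD2 and -0.17 in WT-old.

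Of 15 genes that act downstream of amine receptors, 3 were lower and 2 higher in inc1, 2 were lower in wakeD2, and 4 were lower and 1 higher in WT-old, each against WT, beside the 33.4%, 23.7% and 27.7% of all genes called. The smallest adjusted p values in inc1 belonged to norpA, a phospholipase C that is also a photoreceptor marker (-0.39, edgeR adjusted p = 2.9e-05), Epac, a cyclic AMP sensor (-0.22, adjusted p = 0.00011), and Pka-R2, a regulatory subunit of protein kinase A (0.23, adjusted p = 0.00064). In wakeD2 they belonged to Galphai, the G protein subunit that lowers cyclic AMP (-0.13, adjusted p = 0.0016), and norpA (-0.25, adjusted p = 0.0077). In WT-old Galphai rose (0.23, adjusted p = 3.3e-07), while Epac (-0.23, adjusted p = 6.8e-05) and norpA (-0.33, adjusted p = 0.0004) fell. Between wakeD2 and inc1, 8 of the 15 were lower and 1 was higher in wakeD2, against 19.5% of all genes lower and 21.3% higher, led by Pka-R2 (-0.24, adjusted p = 0.00018), Galphas, which raises cyclic AMP (-0.18, adjusted p = 0.00054), and Galphai (-0.12, adjusted p = 0.0016). With the covariate 2 were lower and 1 higher, and Galphai was lost (adjusted p = 0.091). In wakeD2 against WT the covariate left neither Galphai (-0.09, adjusted p = 0.19) nor norpA (-0.13, adjusted p = 0.47). Without the libraries with accessory gland markers none of the 15 passed in either comparison of the lone wakeD2 library, while norpA, Epac and Pka-R2 in inc1 and Galphai, Epac and norpA in WT-old kept their calls.

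For each of the 9 genes the 2 genes with the most similar log2 level over the 46 libraries were found by Pearson's r. They were Rab3 (0.920) and CG3556 (0.919) for 5-HT1A, chico (0.817) and e(r) (0.811) for 5-HT1B, CG14495 (0.894) and eya (0.868) for 5-HT2A, CG4467 (0.882) and Corin (0.881) for 5-HT2B, and CG15628 (0.936) and dpr11 (0.929) for 5-HT7. SerT was most similar to CG17739 (0.899) and CG7135 (0.878). On the octopamine side, Tdc2 was most similar to Trhn (0.806) and CG4238 (0.798), Tbh to CG30389 (0.928) and Deaf1 (0.928), and Oamb to ey (0.861) and Mef2 (0.812). Group, time of day and depth are shared by these points, so the values describe likeness over these libraries.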

How the data were processed

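RNA of about 200 heads per library was sequenced as 75 bp single reads from stranded mRNA libraries. The deposited values are raw read counts per gene, made by the authors with STAR 2.4.2a on Release 6.13 of the genome and featureCounts; strand and multi-mapping settings are not given in the sources used here. Gene names came from the annotation of Ensembl release 115, which matched 17288 of 17490 identifiers. Genes under 1 CPM in more than 28 of 46 libraries were removed. Counts were TMM-normalised and tested with the quasi-likelihood test of edgeR 4.0.16 (R 4.3.3), with group and 6 times of day in the model. Rhythms used group with a cosine and a sine of 24 h per group, in place of the times of day. P-values were adjusted by Benjamini-Hochberg over all 9969 genes at 0.05. Levels are TMM-normalised CPM, and log2 CPM used a prior count of 2. Alternatives used DESeq2 1.42.0 and limma 3.58.1. Scripts were tested on simulated data. No pair of libraries within a group was a duplicate. Deviations of same-timepoint libraries correlated with WT above 0.1 in 7 (inc1), 1 (wakeD2) and 5 (WT-old) of 10 pairs, not in all, so timepoints were not taken to pair the groups. The 9 genes and all lists were chosen with earlier results of these data known. The text names these 9 genes, other amine genes past the threshold, and the 3 downstream genes of smallest adjusted p per comparison.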

Additional observations from a re-analysis of the deposited data

Results flagged for a closer look

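For Oamb the lowest WT library, that of ZT36, stood at 38.0 CPM, apart from the other 9 WT libraries. Its distance to the nearest of them was 0.55 of the range of the group, above the limit of Dixon's test for a group of 10. The 9 genes were each examined in this way in WT, and chance alone exceeds such a limit in about 1 of 20 groups. The library was among the 3 WT libraries with accessory gland markers, and without those libraries the rise of Oamb in inc1 still passed (log2 fold change 0.23, edgeR adjusted p = 0.018).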

How the results depend on the processing

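Calls of level were refitted under 11 alternatives and those of rhythm under 5 or 6. Of 396 refitted log2 fold changes of the 9 genes 354 kept their direction and side of the threshold, 25 lost the call, 2 gained it and 15, none called, changed sign. The falls of 5-HT2A and SerT in inc1 passed under all 11. In wakeD2 the 2 calls became 1 on the second sampling day alone (266 genes called in all, against 2365), 1 with the gland and midgut covariate (704) and 0 without the libraries with accessory gland markers (30, leaving 1 wakeD2 library); with no filter 4963 genes were called, and 1418 without time of day. The lone WT-old call became 0 without time of day (1475 genes, against 2764), on the first day (1329) and on the second (1449). Of 5 calls between wakeD2 and inc1, 3 stood without time of day (2194 genes, against 4070), 1 on the second day (1632), 1 without gland libraries (187) and 3 with the covariate (2009); 2596 genes passed on the first day. In inc1 1817 genes passed without time of day, 1625 on the first and 1915 on the second day, against 3333. The inc1 rhythm count of 1 became 0 with no filter, and the WT-old count of 2 became 1 with no filter and 1 over the shared timepoints (1204 genes, against 1950); in wakeD2 389 against 590 genes passed over those. Sign changes were 5-HT7 in inc1 on the second day (-0.077); in wakeD2 5-HT1A without gland libraries (0.038) and with the covariate (0.011), 5-HT1B without gland libraries (-0.058), and 5-HT7 on the first day (0.068), without gland libraries (0.20) and with the covariate (0.0072); in WT-old 5-HT1B on the second day (0.090), 5-HT7 (0.065) and Tdc2 (-0.021) on the first, and Oamb with DESeq2 size factors (-0.0030), the DESeq2 test (-0.0019) and on the second day (-0.0080); and between wakeD2 and inc1 5-HT2B (-0.019) and 5-HT7 (0.073) without gland libraries. The cause was not tested. With the collection timepoint as a block the counts of level calls stayed at 4, 2, 1 and 5; same-timepoint libraries correlated with WT at a mean r of 0.21 in inc1, -0.43 in wakeD2 and -0.09 in WT-old. Under this block 1 gene, SerT, differed in rhythm between WT-old and WT (edgeR adjusted p = 0.0045). The difference between its 2 fitted curves had an amplitude of 0.29. In the main model the SerT curves had amplitudes of 0.13 in WT-old, peaking at ZT15.3, and 0.17 in WT, peaking at ZT5.13, and neither passed. Under the block 57, 0 and 311 genes differed in rhythm in inc1, wakeD2 and WT-old, against 3, 0 and 164. Without the ZT8 libraries of inc1 and wakeD2, a choice made after seeing the data, the WT-old rhythm count was 3. Single libraries per timepoint and 10 WT libraries limit the rhythm tests, and depth does not limit the levels.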

Other observations

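Some of the 9 genes also varied together beyond group and time of day. After both were taken out, the highest Pearson's r over 46 libraries was 0.82, between Tbh and Oamb, followed by 5-HT1A and Tbh at 0.78 and 5-HT1A and Oamb at 0.71, while 5-HT2A reached at most 0.26, with 5-HT2B. SerT reached 0.41 with Oamb and 0.34 with Tdc2, but stood at -0.11 with 5-HT2B and -0.10 with 5-HT7. Tdc2 reached 0.55 with Tbh and 0.52 with 5-HT1A. The ZT8 libraries of inc1 and wakeD2 were included, and their part in these values was not tested. These are descriptions over libraries that share depth and composition.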
